A study of Mus musculus with 12 samples.

Results

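Nicotinic acetylcholine receptors are channels of 5 subunits that open when acetylcholine binds, and the neuronal subunits are encoded by the Chrna and Chrnb genes. The 10 genes described here are the alpha subunits Chrna3, Chrna4, Chrna5, Chrna6, Chrna7, Chrna9 and Chrna10 and the beta subunits Chrnb2, Chrnb3 and Chrnb4, out of 35534 genes with a listed transcript. They were taken by name as one receptor family, and were chosen by a rule that looks at measured values, their summed estimated counts in each library and the difference of Q84 from WT by label and by an Atxn3 transcript. Their difference between genotypes is therefore given below as a description with no p-value, and where calls of a test across all genes are counted for them, nothing is read from the count. RNA came from dorsal root ganglia (DRG), in which the cell bodies of the body's touch, pain and position neurons are gathered, and the mice were 24 weeks old. Wild-type (WT) mice were compared with YAC Q84 mice, labelled Q84, which carry a yeast artificial chromosome holding the human ATXN3 gene with an expanded CAG repeat, a model of spinocerebellar ataxia type 3 (SCA3). The 12 libraries were 3 WT male, 3 WT female, 1 Q84 male and 5 Q84 female.

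Alpha subunits contribute the main face of the acetylcholine site, and beta subunits or other alpha subunits the opposite face. Alpha7 subunits can form channels by themselves, which are highly permeable to calcium. Alpha3, alpha4 and alpha6 need a beta2 or beta4 partner, while alpha5 and beta3 are accessory subunits that join such channels. Alpha9 and alpha10 form the efferent receptor of cochlear hair cells. In sensory ganglia alpha6 is known for a part in mechanical pain, and Chrna3 is known as a marker of nociceptors that respond to touch only after inflammation.

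The genotype labels were checked first. One transcript of the mouse gene Atxn3, ENSMUST00000161011.8 of 1000 bases, can take up reads of the human transgene. In TPM, the abundance of a transcript scaled to its length and to a fixed library total, it held 62.7 to 79.4 in the library labelled Q84 male 1 and in those labelled Q84 female 1 to 4. In all libraries labelled WT but one it held 0 to 0.285 TPM. Against their genotype labels, it held 0.0612 TPM in Q84 female 5 and 34.0 TPM in WT female 2. No library was moved to another group, and results are given for all 12 libraries as labelled and for the 10 that remain without these 2 libraries. Total estimated counts ran from 66490481 to 86891563 per library, the labels do not say whether each library came from a separate animal, and Q84 males are represented by a single library. Neuronal RNA was checked with 14 pan-neuronal markers such as Snap25, Tubb3 and Uchl1, which do not tell dorsal root ganglia from other neural tissue. They summed to 10097 to 12332 CPM, counts scaled to library size, in libraries labelled WT and 9969 to 10533 CPM in those labelled Q84.

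Promoters are shown for Chrna7, Chrna3 and Chrna10, because these 3 subunits and Chrna6 had CPM ranges that did not overlap between WT and Q84 in the 10 libraries, and the table of promoters used here holds these 3. The sequences are from RefSeq on build GRCm38.p6, run 5′ to 3′ on the strand of the gene, and span 250 bases before to 50 bases after the annotated start. Capitals mark GC boxes, here the letters GGGCGG on either strand.
Chrna7, chr7:63212477-63212776, minus strand: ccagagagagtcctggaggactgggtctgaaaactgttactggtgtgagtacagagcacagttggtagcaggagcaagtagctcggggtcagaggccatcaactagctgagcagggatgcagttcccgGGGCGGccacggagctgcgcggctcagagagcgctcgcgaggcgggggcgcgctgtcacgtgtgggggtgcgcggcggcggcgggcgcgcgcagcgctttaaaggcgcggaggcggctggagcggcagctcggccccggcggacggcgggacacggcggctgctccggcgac
Chrna3, chr9:55026513-55026812, minus strand: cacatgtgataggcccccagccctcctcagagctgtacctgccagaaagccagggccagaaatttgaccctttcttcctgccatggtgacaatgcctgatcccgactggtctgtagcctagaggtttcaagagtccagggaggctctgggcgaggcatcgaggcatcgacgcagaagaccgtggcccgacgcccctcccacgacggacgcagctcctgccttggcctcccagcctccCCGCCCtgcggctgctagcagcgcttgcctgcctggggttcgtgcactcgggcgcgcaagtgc
Chrna10, chr7:102116664-102116963, minus strand: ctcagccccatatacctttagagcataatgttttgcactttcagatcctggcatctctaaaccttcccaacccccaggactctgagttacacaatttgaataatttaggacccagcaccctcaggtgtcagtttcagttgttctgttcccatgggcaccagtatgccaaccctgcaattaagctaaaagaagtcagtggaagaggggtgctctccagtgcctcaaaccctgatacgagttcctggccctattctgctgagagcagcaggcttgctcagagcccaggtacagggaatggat
The GC content was 70.0% for Chrna7, 64.3% for Chrna3 and 49.3% for Chrna10, and the median over all 32851 promoters in the table was 52.7%. Chrna7 and Chrna3 each had 1 GC box and Chrna10 had none, while 35.7% of all promoters had at least 1. Of the 8 subunits with an entry, Chrna4, Chrna5 and Chrnb2 also held at least 1, and Chrna9 and Chrnb4 held none. Of the promoters listed for Chrna5, that at 65.0% GC held 4 GC boxes and that at 41.3% GC held none. The letters GCGTGGGCG are a form of the core site of the EGR factors. They were found on neither strand in any of these subunits' promoters and in 0.612% of all promoters. Other forms of that site were not searched for.

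Receptor RNA in the ganglion was mostly alpha6 and alpha7. On the TPM scale, which is per transcript length and so allows levels of different genes to be compared, Chrna6 was highest with a mean of 69.4 ± 7.09 TPM (SD, n = 6) in WT. Chrna7 followed at 58.6 ± 9.23 TPM (SD, n = 6), and the WT ranges of the pair, 58.3 to 79.5 TPM and 41.5 to 67.3 TPM, overlapped. In Q84 they did not: Chrna6 ran from 33.8 to 58.6 TPM and Chrna7 from 23.2 to 30.3 TPM. Together the pair made up 78.4 to 89.8% of the summed TPM of the 10 subunits in a library.

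The beta subunits came next in the order of WT levels. Chrnb2, the most common partner of alpha4 and alpha6 in the brain, was at 12.4 ± 3.03 TPM (SD, n = 6), below the lowest WT library of Chrna7. Chrnb3, the accessory subunit encoded beside Chrna6, was at 5.81 ± 1.79 TPM (SD, n = 6), and its WT range of 3.41 to 8.55 TPM overlapped that of Chrnb2. Chrnb4, the usual partner of alpha3 in autonomic ganglia, was at 1.66 ± 0.721 TPM (SD, n = 6), with no WT library in the range of Chrnb3.

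The remaining alpha subunits were scarce. Chrna3 had a mean of 0.741 ± 0.357 TPM, Chrna10 of 0.545 ± 0.277 TPM and Chrna5 of 0.471 ± 0.126 TPM in WT (SD, n = 6 each), and their ranges overlapped, so the order of these 3 is not beyond their spread. Chrna4 lay lowest of the subunits that could be tested, at 0.219 ± 0.0919 TPM (SD, n = 6). Chrna9 was close to background: 0 to 6 estimated counts per library and 0 in 6 of the 12 libraries, and it did not pass the filter on low counts. The 9 other subunits passed it.

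**Figure D1:**
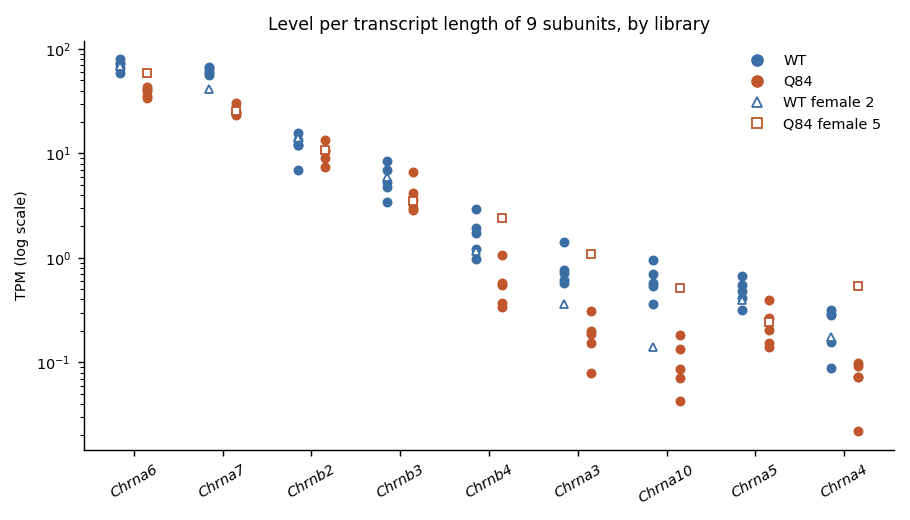
Level of 9 subunits in TPM on a log axis, in the order of the mean over 12 libraries; each point is 1 library, blue for those labelled WT and orange for those labelled Q84, and open symbols are the libraries that go against their label. Chrna6 and Chrna7 stand above Chrnb2 and Chrnb3, and the other subunits are near or below 2 TPM in most libraries.

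Between genotypes, Chrna7 was the one subunit whose libraries did not overlap as labelled. CPM values here are scaled with trimmed-mean factors (TMM) over the 12 libraries and compare libraries, not genes. WT male 1 to 3 held 80.2, 84.6 and 78.5 CPM of Chrna7, WT female 1 and 3 held 79.9 and 90.3 CPM, and the library labelled WT female 2 held 52.6 CPM. Q84 male 1 held 32.6 CPM, Q84 female 1 to 4 held 41.6, 33.6, 37.4 and 31.5 CPM, while Q84 female 5 held 37.1 CPM. Every library labelled Q84 was below every library labelled WT. The WT mean was 77.7 ± 13.0 CPM and the Q84 mean 35.6 ± 3.79 CPM (SD, n = 6 each), or 45.9% of it. The log2 fold change was -1.11 (SE 0.13) in the 12 libraries and -1.27 (SE 0.093) in the 10.

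Chrna6, on chromosome 8, was lower in Q84 by a smaller amount. The 5 WT libraries without WT female 2 held 119, 124, 135, 139 and 154 CPM, and WT female 2 held 125 CPM, inside their range. Q84 male 1 held 75.7 CPM and Q84 female 1 to 4 held 84.8, 70.3, 88.6 and 66.3 CPM. The library labelled Q84 female 5 held 122 CPM of Chrna6, inside the WT range, although its Chrna7 was in the range of the other Q84 libraries. The groups did not overlap in the 10 libraries and overlapped in the 12. The log2 fold change was -0.70 (SE 0.14) in the 12 libraries and -0.85 (SE 0.099) in the 10.

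The proportion of the pair also differed between libraries. The ratio of Chrna7 to Chrna6 in TPM was 0.830 to 0.987 in the 5 WT libraries without WT female 2 and 0.610 to 0.709 in the 5 Q84 libraries without Q84 female 5. It was 0.607 in WT female 2, just under the lowest of those Q84 libraries. Q84 female 5 had the lowest ratio of the 12, at 0.440.

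Chrna3, on chromosome 9, was low in absolute terms and had a larger fold difference in the 10 libraries. WT male 1 to 3 held 1.83, 2.10 and 1.71 CPM, WT female 1 held 2.03 CPM and WT female 3 held 4.11 CPM. Q84 male 1 held 0.534 CPM and Q84 female 1 to 4 held 0.948, 0.481, 0.656 and 0.243 CPM. The library labelled WT female 2, at 0.970 CPM, lay between these ranges, and Q84 female 5, at 3.47 CPM, lay in the WT range. The log2 fold change was -1.23 (SE 0.63) with the 12 libraries and -2.19 (SE 0.34) with the 10, where the Q84 mean was 24.3% of the WT mean.

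Chrna10 is on chromosome 7 with Chrna7, away from it, and its values were also low. The 5 WT libraries without WT female 2 held 0.640, 0.899, 0.948, 1.11 and, in WT male 3, slightly over 1.5 CPM, and the 5 Q84 libraries without Q84 female 5 held 0.0781 to 0.294 CPM. WT female 2 was at 0.216 CPM, inside the Q84 range, and Q84 female 5 was at 0.928 CPM, inside the WT range. The log2 fold change was -1.37 (SE 0.63) in the 12 libraries and -2.37 (SE 0.34) in the 10. These values rest on 6 to 123 estimated counts per library.

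The other 2 alpha subunits that could be tested overlapped between genotypes in both sets of libraries. Chrna4 ranged from 0.275 to 0.957 CPM with a median of 0.690 CPM in WT and from 0.0707 to 1.25 CPM with a median of 0.246 CPM in Q84. Its highest library of all 12 was Q84 female 5, and its log2 fold change was -0.80 (SE 0.65) with that library and WT female 2 and -1.62 (SE 0.46) without them. Chrna5 ranged from 0.462 to 0.810 CPM with a median of 0.589 CPM in WT and from 0.221 to 0.580 CPM with a median of 0.390 CPM in Q84. Its log2 fold change was about the same in both sets, -0.65 (SE 0.27) and -0.68 (SE 0.32).

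Among the beta subunits, Chrnb2 had the smallest difference. It ranged from 31.9 to 66.7 CPM with a median of 55.9 CPM in WT and from 38.0 to 57.6 CPM with a median of 48.5 CPM in Q84, and the lowest library of all was WT male 1. Its log2 fold change was -0.16 (SE 0.16) in the 12 libraries and -0.13 (SE 0.19) in the 10, each within about 1 standard error of 0. Chrnb3 ranged from 11.1 to 25.2 CPM with a median of 16.0 CPM in WT and from 9.34 to 21.3 CPM with a median of 10.9 CPM in Q84. Its log2 fold change was -0.48 (SE 0.26) and -0.51 (SE 0.32).

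Chrnb4, like Chrna3, had a larger difference without WT female 2 and Q84 female 5. It ranged from 2.59 to 7.06 CPM with a median of 3.66 CPM in WT, and WT female 2 was inside the range of the others at 2.79 CPM. Q84 male 1 and Q84 female 1 to 4 held 1.32, 2.76, 0.976, 1.66 and 0.874 CPM, and Q84 female 5 held 6.61 CPM. The log2 fold change was -0.81 (SE 0.57) in the 12 libraries and -1.51 (SE 0.41) in the 10. Even without the doubted libraries the ranges overlapped, since Q84 female 1 was above WT male 1.

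**Figure D2:**
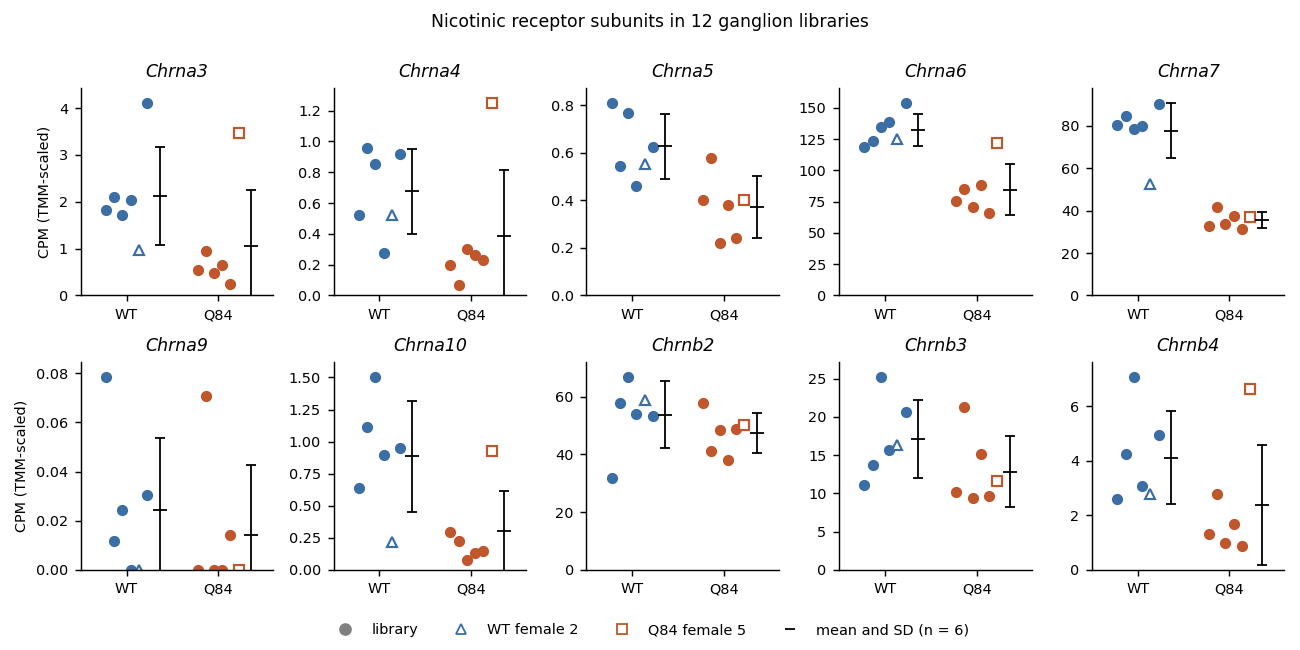
CPM of the 10 subunits in 12 libraries, each point 1 library, with mean and SD for the 6 libraries of each genotype as labelled (bars are drawn from 0 upward). For Chrna7 all libraries labelled Q84 lie at or below 41.6 CPM and all labelled WT at or above 52.6 CPM, while Q84 female 5 (open square) lies among the WT libraries for Chrna3, Chrna6, Chrna10 and Chrnb4.

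Counted over the family, every tested subunit had a negative fold change in both sets of libraries. The edgeR quasi-likelihood test with an adjusted p under 0.05 called 1 of the 9 tested subunits lower in the 12 libraries, Chrna7, where 0.0053% of 18868 genes were called lower. Chrna7 was no longer called in 5 of the 12 fits that left out 1 library, the count over all genes ran from 0 to 1082 in those fits, and DESeq2 called 620 genes, Chrna6 and Chrna7 among them. In the 10 libraries it called 4 of 9 lower, Chrna3, Chrna6, Chrna7 and Chrna10, where 4.93% of 18714 genes were called lower. It called none of the 9 higher, where 0% and 1.52% of genes were called higher. CPM ranges did not overlap, with Q84 lower, for 1 of 9 subunits in the 12 libraries and 4 of 9 in the 10, beside 1.15% and 5.96% of all tested genes. The median log2 fold change of the 9 subunits was -0.80 in the 12 libraries and -1.27 in the 10, and over all tested genes it was 0.01 in both. The family was chosen with this contrast known, so nothing is read from these counts. The summed CPM of the 10 subunits was 290 ± 32.0 in WT and 185 ± 27.2 in Q84 (SD, n = 6 each).

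**Figure D3:**
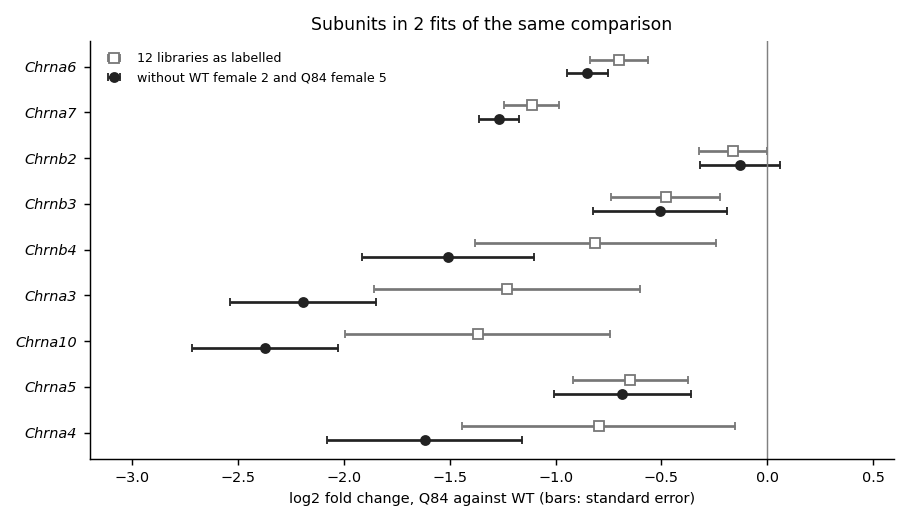
Log2 fold change of Q84 against WT for 9 subunits, with its standard error, from the 12 libraries as labelled (open squares) and from the 10 without WT female 2 and Q84 female 5 (filled circles). Chrna7 is at -1.11 and -1.27, whereas Chrna3, Chrna4, Chrna10 and Chrnb4 move to lower values when both libraries are left out.

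Some markers of sensory neuron types were also lower in Q84 in the 10 libraries. In bulk tissue, fewer cells of a type and less RNA per cell cannot be told apart. Of 16 markers of non-peptidergic and itch neurons, among them P2rx3 and Plxnc1, 11 fell in the 10 libraries and none rose, while 5 did not pass (edgeR, adjusted p under 0.05), beside 4.93% of all genes. Their summed level was 1121 to 2037 CPM in WT and 831 to 1064 CPM in Q84 in those 10 libraries, and 2067 CPM in Q84 female 5. Of 12 peptidergic nociceptor markers, such as Calca and Tac1, 5 fell, as did 3 of 8 tested markers of C-fibre low-threshold neurons, such as P2ry1. Of 12 markers of large myelinated neurons, 4 fell as well, among them Nefl. The summed level of the 12 was 2310 to 2952 CPM in WT and 1753 to 2242 CPM in Q84 in the 10 libraries. In Q84 female 5 it was 3481 CPM, above every library labelled WT. No pan-neuronal marker of 14 passed the test in either set of libraries, and none of these 5 lists had a member called in the 12 libraries. The only call there among 18868 genes was Chrna7, so nothing is read from the lack of calls in these lists. The part of these cell types in the subunits' values was not tested.

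Sympathetic neurons express Chrna3 and Chrnb4 strongly, so their markers are given here too. Phox2a and Hand1 had 0 counts in every library, and Dbh, the enzyme that makes noradrenaline, was at 0 to 0.0473 CPM. Of the list of 13, Th was the most abundant at 12.2 to 74.4 CPM, and it is shared with C-fibre low-threshold neurons. Slc18a1 was at 3.02 to 7.61 CPM and Ddc at 2.02 to 3.25 CPM. In the 10 libraries 1 of 7 tested markers rose, Slc18a1 at a log2 fold change of 0.67, and 6 did not pass (edgeR). Beside this, 1.52% of all genes rose. None of the 8 markers tested in the 12 libraries passed, where 0.0053% of genes fell and 0% rose. The summed level of the list was 23.5 to 84.4 CPM in WT and 22.2 to 74.1 CPM in Q84. Skeletal muscle markers summed to 132 to 851 CPM in WT and 148 to 1803 CPM in Q84, and fibroblast markers such as Apod and Dcn to 1724 to 2472 CPM and 2190 to 2899 CPM. The part of these tissues in the values was not tested.

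Sex was a contrast that the choice of subunits did not use. None of the 9 tested subunits passed the test of male against female (edgeR, adjusted p = 0.9999 for each), where 0.0636% of genes were called. Log2 differences of male minus female ran from -0.58 (SE 0.68) for Chrna3 to 0.44 (SE 0.65) for Chrna10. Chrna7 was at 0.03 (SE 0.14) and Chrna6 at -0.16 (SE 0.15). The interaction of genotype and sex, which rests on the single Q84 male library, called none of the 9, where 0.0424% of genes were called. Among females alone, 3 WT against 5 Q84, none of the 9 subunits and 0% of 17241 genes were called, although 1826 genes had an unadjusted p under 0.05 and DESeq2 called 149 genes, Chrna6 and Chrna7 among them. The log2 fold change of Chrna7 in females was -1.03 (SE 0.16) and that of Chrna6 was -0.69 (SE 0.19). WT female 2 and Q84 female 5, which go against their labels, are both among these females. Without them edgeR called 891 genes, Chrna3, Chrna6, Chrna7 and Chrna10 among them. Chrna7 was then at -1.23 and Chrna6 at -0.90.

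Which transcript of a subunit carried the reads was not used to choose the family, and was tested for the 4 subunits with at least 2 listed transcripts and a mean of 1 CPM or more. The share of estimated counts on the most abundant transcript was compared with a two-sided exact permutation test, whose smallest possible p is 0.00216, and p-values were adjusted over the 4. Chrna7 reads lay almost wholly on the protein-coding transcript ENSMUST00000032738.7 of 2078 bases, at 99.0 ± 0.131% in WT and 98.8 ± 0.311% in Q84 (SD, n = 6 each; exact p = 0.149, adjusted 0.199). The other Chrna7 transcript, annotated as a processed transcript, held 21.0 to 74.9 counts per library.

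Chrna3 reads on ENSMUST00000034851.7 made up 96.1 ± 2.31% in WT and 99.1 ± 1.71% in Q84 (SD, n = 6 each), a difference of 2.94 points that did not pass after adjustment (exact p = 0.0455, adjusted 0.0909). The other Chrna3 transcript held 0 to 8.54 counts per library, and the gene 17 to 269, so this difference rests on few reads. For Chrnb3 the share on ENSMUST00000060943.5 was 94.9 ± 2.09% in WT and 97.5 ± 1.37% in Q84 (SD, n = 6 each; exact p = 0.0346, adjusted 0.0909). A shorter Chrnb3 transcript of 2255 bases, ENSMUST00000079463.12, held 10.5 to 82.5 counts in each of the 6 WT libraries. It held 30.8 counts in Q84 male 1 and 7.23 counts in Q84 female 1, and was listed at 0 in Q84 female 2 to 5. Chrnb2 was split between a protein-coding and a long processed transcript, with 82.9 ± 11.4% on the protein-coding one in WT and 74.9 ± 18.6% in Q84 (SD, n = 6 each; exact p = 0.420). Its share was 42.4% in Q84 female 5, and 68.4 to 98.0% in the other 11 libraries. Estimates for transcripts that share most of their sequence are uncertain, since the deposited counts divide such reads by likelihood. Without WT female 2 and Q84 female 5 none of the 4 passed either, with adjusted exact p-values from 0.159 to 0.587.

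Position on the chromosome was a second property that the choice did not use. Chrna7 lies on chromosome 7 near the imprinted genes Snrpn, Ndn and Magel2. Across all genes, 0.0053% were called lower and 0% higher in the 12 libraries, and 4.93% and 1.52% in the 10 (edgeR). Beside these shares, none of the 10 tested genes before Chrna7 and the 10 after it passed the test in either set. Their log2 fold changes ran from -0.60 to 0.45 in the 12 libraries and from -0.81 to 0.24 in the 10, all nearer to 0 than that of Chrna7. The directly adjacent tested genes were Peg12 before it, at 0.14 in the 10 libraries, and Otud7a after it, at -0.20, and both had a mean under 1 CPM. When WT male 1 was also left out of the 10 libraries, 1 of the 20 neighbours was called. That fit called 1978 genes in all, so nothing is read from this call.

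**Figure D4:**
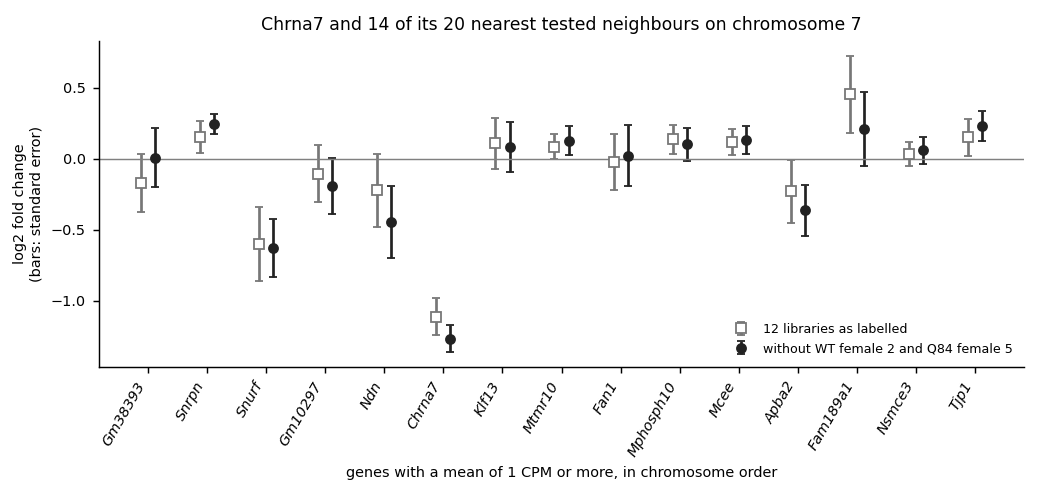
Log2 fold change of Q84 against WT, with its standard error, for Chrna7 and the 14 of its 20 nearest tested neighbours that had a mean of 1 CPM or more, in chromosome order. Chrna7 is at -1.11 in the 12 libraries (open square) and -1.27 in the 10 (filled circle), and the neighbours shown lie between -0.63 and 0.45.

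Members of the family that neighbour each other did not all have the same size of difference. On chromosome 9 the genes stand in the order Chrna5, Chrna3 and Chrnb4, with log2 fold changes of -0.68, -2.19 and -1.51 in the 10 libraries. The tested genes on either side, Psma4 and Ube2q2, were at 0.08 and -0.23. On chromosome 8 Chrnb3 and Chrna6 are adjacent, at -0.51 and -0.85, with Eif4ebp1 at -0.02 and Unc5d at -0.28 outside them. The outer neighbours named here did not pass the test in either set of libraries.

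The genes whose profile was most like that of Chrna7 were found by the root mean square difference of centred log2 CPM over the 12 libraries, among 13585 genes with a mean of at least 1 CPM. The median difference over these genes was 0.63. The smallest were those of Prmt8, an arginine methyltransferase of neurons, at 0.24, and Ptgfr, the receptor of prostaglandin F2 alpha, at 0.24. Hbq1b, a globin gene, followed at 0.24, and A4galt, the enzyme that makes globotriaosylceramide, at 0.26. Prmt8 held 31.5 to 48.6 CPM in WT and 18.5 to 29.1 CPM in Q84, without overlap. Ptgfr held 75.1 to 139 CPM in WT and 49.7 to 95.2 CPM in Q84, and overlapped because Q84 female 5 was the highest Q84 library and WT female 2 the lowest WT library. Of the other subunits, Chrna6 was most like Chrna7 at 0.32, and Chrnb2, Chrna3 and Chrnb4 were at 0.61, 0.65 and 0.65, near the median of all genes. This likeness takes in the genotype difference by which the family was chosen, and is a description.

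Outside the family, the proteins that fold or bind the receptor were taken as a list of 15 genes. This list, like the other gene lists here, was chosen with earlier results of these data known. Its counts and p-values are therefore a description. In the 10 libraries 5 of 15 fell and 10 did not pass, and in the 12 libraries none of 15 passed (edgeR, with 4.93% and 0.0053% of all genes lower). The median log2 fold change of the list was -0.11 in the 10 libraries. Those that fell were Ly6h, Lypd1, Lypd6, Lypd6b and Slurp1, which encode small proteins with the Ly-6 fold that bind nicotinic receptors and alter their response or surface level. Lypd6b had a log2 fold change of -2.05 (SE 0.13) with adjusted p = 2.8e-06 by edgeR, and Lypd6 of -1.83 (SE 0.16) with adjusted p = 4.94e-05. Lypd6b held 14.7 to 19.3 CPM in the 5 WT libraries and 3.50 to 4.92 CPM in the 5 Q84 libraries, without overlap. Ly6h was at -1.80 (SE 0.16) with edgeR adjusted p = 6e-05 and Lypd1 at -2.33 (SE 0.43) with adjusted p = 0.0117.

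The same 4 Ly-6 genes were not low in the library labelled Q84 female 5, which held 9.14 CPM of Ly6h, 22.8 of Lypd1, 10.7 of Lypd6 and 16.5 of Lypd6b, above every other Q84 library. The library labelled WT female 2 held the lowest WT level of all 4, from 5.20 CPM of Lypd1 to 11.7 CPM of Lypd6b. Slurp1, a secreted relative best known from skin, was at -4.86 (SE 0.88) with edgeR adjusted p = 0.00738, but this rested on WT female 1 at 2.12 CPM. Without WT female 1 the log2 fold change of Slurp1 was -2.94 and its adjusted p 0.0894. Keratinocyte markers such as Perp and Krt15 summed to 237 CPM in WT female 1, the highest of the WT libraries. The lowest WT sum was 18.2 CPM, and the WT mean of 56.1 ± 88.7 CPM (SD, n = 6) rested on WT female 1. The 6 Q84 libraries held 18.0 to 25.0 CPM.

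The chaperones of alpha7, picked here for their role after their values were seen, did not pass. Ric3, which assists assembly of alpha7 and other subunits, had a WT mean of 152 ± 8.42 CPM and a Q84 mean of 137 ± 10.2 CPM (SD, n = 6 each). Its log2 fold change was -0.13 (SE 0.067) in the 12 libraries and -0.11 (SE 0.067) in the 10. Tmem35a, which encodes the chaperone NACHO, had a WT mean of 107 ± 11.3 CPM and a Q84 mean of 102 ± 9.71 CPM (SD, n = 6 each), and log2 fold changes of -0.05 (SE 0.090) and 0.02 (SE 0.097). Lynx1, an Ly-6 protein that restrains receptor opening, was at 0.00 (SE 0.26) in the 10 libraries, with WT values from 51.8 to 124 CPM.

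**Figure D5:**
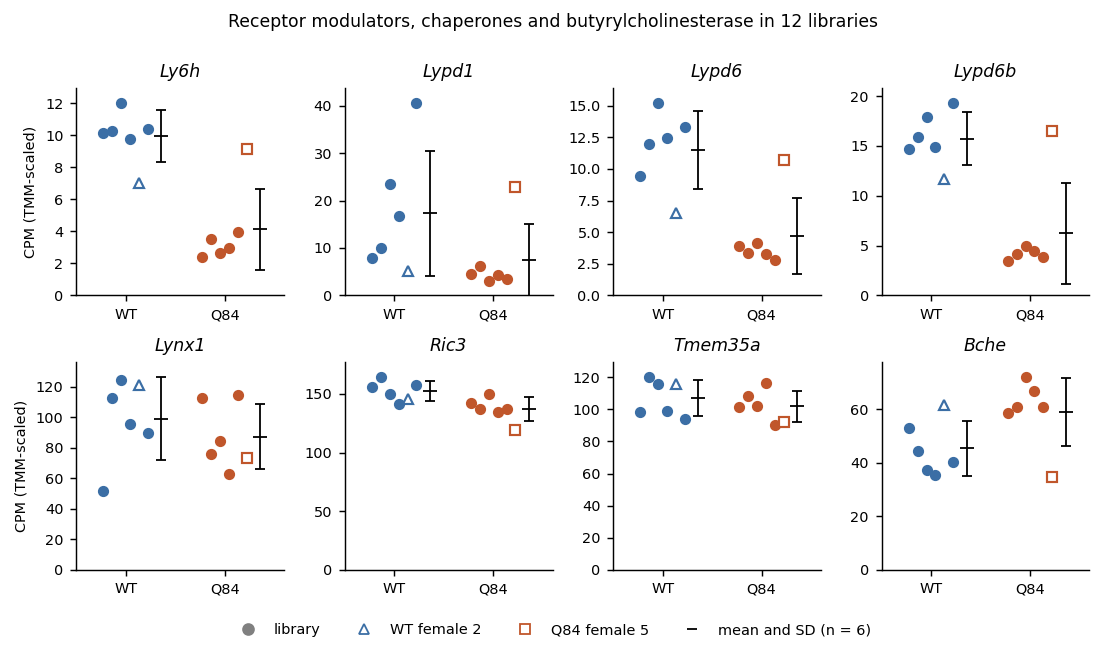
CPM of 4 Ly-6 genes that fell in the 10 libraries, of Lynx1, Ric3 and Tmem35a, which did not pass, and of Bche, which rose, with mean and SD for the 6 libraries of each genotype as labelled (bars are drawn from 0 upward). Q84 female 5 (open square) is the highest Q84 library for Ly6h, Lypd1, Lypd6 and Lypd6b, at 9.14, 22.8, 10.7 and 16.5 CPM, and the lowest of all libraries for Bche, at 34.7 CPM.

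Genes that make, carry and break down acetylcholine were a list of 8. In the 10 libraries 2 fell, 1 rose and 5 did not pass, and in the 12 none passed (edgeR, with 4.93% of all genes lower and 1.52% higher in the 10, and 0.0053% and 0% in the 12). The choline transporter Slc44a1 had a log2 fold change of -0.35 (SE 0.060) and fell (edgeR adjusted p = 0.00465), from a WT range of 254 to 263 CPM to a Q84 range of 190 to 211 CPM in the 10 libraries. Bche, the acetylcholine-splitting butyrylcholinesterase, rose by 0.64 (SE 0.12, edgeR adjusted p = 0.00902), with WT at 35.3 to 53.1 CPM and Q84 at 58.7 to 72.0 CPM in those libraries. Colq, the collagen tail of acetylcholinesterase, fell by 1.23 (SE 0.30, edgeR adjusted p = 0.031), and was no longer called in 6 of the 10 fits that left out 1 further library. On length-scaled TPM, Colq was at -0.60 with an edgeR adjusted p of 0.26. Chat, the enzyme that makes acetylcholine, did not pass and held 0 to 0.229 CPM, so its RNA was barely detectable at this depth.

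Other receptor subunits were counted in the same fits. Of the 6 nicotinic subunits outside the family described here, mostly those of muscle, 4 could be tested and none passed in either set of libraries. Those of smallest p in the 10 libraries were Chrna2, at 0.65 (SE 0.34), and Chrnb1, the beta subunit of muscle, at 0.21 (SE 0.24). None of 5 muscarinic receptors passed in either set, with Chrm3 at -0.62 (SE 0.18) and Chrm4 at 0.37 (SE 0.26) in the 10. Of 6 tested relatives in the Cys-loop family, 1 fell in the 10 libraries and none in the 12, beside 4.93% and 0.0053% of all genes. It was Htr3a, the serotonin-gated channel subunit, at -0.59 (SE 0.094, edgeR adjusted p = 0.00281). Htr3a held 165 to 220 CPM in the 5 WT libraries and 111 to 132 CPM in the 5 Q84 libraries without the doubted ones.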

How the data were processed

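Poly(A) RNA of 12 ganglion libraries was sequenced, per the labels' protocols. The submitters' processing notes name kallisto 0.46.2, STAR 2.7.10b and GRCm39, with no role for any of them; the transcript release, not given in the sources used here, may differ from the annotation below. Each deposited table lists 116313 transcripts. Its estimated counts are the authors' own, fractional and unscaled, and its TPM, also deposited, is relative to length and depth; transcript lengths come with them, per the file headers.

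Transcripts were matched by Ensembl identifier to GENCODE M21, an annotation of GRCm38, for gene names and gene order (98.3% matched). Unmatched transcripts held 0.756 to 0.807% of counts and were left out. Counts were summed per gene, rounded, filtered with filterByExpr, scaled with TMM and compared by quasi-likelihood F-test in edgeR 4.0.16 in R 4.3.3, with sex as a covariate in Q84 against WT and genotype in male against female. P-values were adjusted with Benjamini-Hochberg over all genes tested, with a threshold of 0.05. The test was checked on simulated counts. P-values measure the spread between libraries. Reads of human ATXN3 have only mouse transcripts to map to. Libraries of one group differed by more than sampling noise.

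The subunits, the gene lists and the fit of 10 libraries were chosen with earlier results of these data known. Genes named outside the family are those called in the acetylcholine lists or else up to 2 of smallest p, the called and adjacent neighbours of Chrna7, the 5 profiles most like Chrna7 (log2 CPM with 0.25 added, mean of 1 CPM or more; 1 of them is not reported here), and up to 3 genes of highest mean CPM in a cited marker list; other names were picked after their values were seen. Replicate numbers were checked for pairing, and alternatives were DESeq2 1.42.0, limma-voom in limma 3.58.1, other filters and scaling factors, counts derived from TPM and length, the replicate number as a block, and leave-one-out. Promoter sequences are from RefSeq. Protein sequences were not used here.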

Additional observations from a re-analysis of the deposited data

Results flagged for a closer look

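For each subunit the highest and the lowest library were set against the rest of the group in the WT, Q84 and Q84 female groups. Of 30 groups, 11 had a library farther out than Dixon's 95% limit. Among separate groups of normal values, chance alone marks about 1 in 20. The Q84 and Q84 female groups share libraries and can count the same library again, so nothing is read from the number flagged. Q84 female 5, which goes against its genotype label, was the library that stood apart in most of the 11. It held 3.47 CPM of Chrna3, 1.25 CPM of Chrna4 and 0.928 CPM of Chrna10, each far above the other Q84 libraries both within all libraries labelled Q84 and within the Q84 females. It held 6.61 CPM of Chrnb4, which stood apart among all libraries labelled Q84. WT female 2, the other library that goes against its label, stood apart on the low side of the WT libraries for Chrna7, at 52.6 CPM. WT female 3 stood apart on the high side of the WT libraries for Chrna3, at 4.11 CPM. Chrna9 in Q84 female 1 stood apart at 0.0707 CPM, which is 5 estimated counts, in both Q84 groups. No subunit differed between the sexes in its genotype effect by the interaction test of edgeR.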

How the results depend on the processing

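Over the 12 libraries as labelled, edgeR called 1 gene, while DESeq2 called 620, the test of all genes with any count 15 and the 10 libraries 1207. Leaving out 1 library each gave 0 to 1082 calls, with 1082 without Q84 female 5, 51 without WT female 2, 42 without WT male 1 and 3 without WT female 1, and 0 without WT female 3, Q84 male 1 or Q84 female 2, 3 or 4. Chrna7 lost its call in those same 5 fits, where its log2 fold change was -1.11 to -1.02. The 10-library count of 1207 was 1933 with DESeq2 and 681 (without Q84 male 1) to 1978 (without WT male 1) when 1 library was left out, and 741 without WT female 3. Chrna3, Chrna6, Chrna7 and Chrna10 kept their calls in each alternative of the 10 libraries that tested them (Chrna10 is not tested with a mean of at least 1 CPM), and Chrna4 and Chrnb4 were also called in some, at -1.64 and -1.51 with DESeq2. The subunits were chosen with this contrast known, so nothing is read from these calls. Among females, 0 calls became 149 with DESeq2, 891 without both doubted libraries and 0 to 843 with 1 library left out. Male against female gave 12 calls, 20 with DESeq2, 7 with a mean of at least 1 CPM, 7 in the 6 WT libraries and 6 to 23 with 1 library left out.

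Replicate numbers were not used as pairs in the main fits. Over 9 same-numbered pairs the correlation of deviations from group means ran from -0.18 to 0.30 and was over 0.1 in 5. Over pairs with different numbers it ran from -0.34 to 0.23. These values do not settle whether the numbers pair the libraries. With the replicate number as a block, calls were 638 in the 12 libraries, 701 in the 10, 475 in females and 7 for sex. The block takes up Q84 female 4 and 5 by construction, since no other library has their numbers.

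In the acetylcholine lists over 12 libraries, leaving out 1 library gave 0 to 3 calls among chaperones and modulators, 0 to 2 in acetylcholine synthesis and breakdown and 0 to 1 among Cys-loop relatives. The upper values came without Q84 female 5, where 1082 genes were called. Over the 10 libraries, leaving out 1 library gave 0 to 1 among muscarinic receptors and 0 to 1 among the neighbours of Chrna7. The upper values came without WT male 1, where 1978 genes were called. In CPM, Chrna5 ranked 9 and Chrna4 8. The Chrna3 transcript share differed by 2.36 to 3.72 points with 1 library left out, and passed at 3.72 without WT male 1 (adjusted exact p = 0.0433). It rests on 0 to 8.54 counts per library of the other Chrna3 transcript. Sex differences near 0 changed sign: Chrna4 to -0.0034 with DESeq2, Chrnb4 to 0.0775 with limma-voom, 0.142 with the replicate block, 0.0424 without both doubted libraries and 0.366 in WT, Chrna7 to -0.10 without both doubted libraries and Chrnb2 to -0.086 in WT. With 1 library left out they ran from -0.30 to 0.45 for Chrna4, -0.11 to 0.13 for Chrna7, -0.0854 to 0.245 for Chrnb2 and -0.402 to 0.367 for Chrnb4, and the female difference of Chrna4 from -1.40 to 0.10, the last without WT female 3. Where no reason is given, the cause was not tested. Depth limits Chrna9 and, less so, Chrna4, Chrna5 and Chrna10, with 5 to 123 counts per library.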
